A study of Mus musculus with 37 samples.

Results

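MLL-AF10 leukaemia stem cells were set against blood progenitors of AML-ETO9a transgenic mice by multiplex TaqMan quantitative PCR of microRNAs (miRNAs). The MLL-LSC runs held Kit+ MLL-AF10+ leukaemia stem cells from mice transduced with the MLL-AF10 oncogene, labelled as wildtype in genotype and C57/Bl6 in strain. The KSL-ETO runs held bone marrow cells sorted as Kit+ Sca-1+ Lin- (KSL) from C57/Bl6 mice that carried the AML-ETO9a transgene. Both groups were labelled as haematopoietic or leukaemic tissue, and 6 of the series' 37 samples were members, 3 in each group. KSL cells of wild type C57/Bl6 mice (KSL-B6, 3 samples) were the nearest normal cells. The other samples were blood, muscle and neural stem or progenitor cells, each made from 20 to 1000 sorted cells per the design text. The groups differed in fusion gene, in the way it was introduced (a transduced oncogene against a transgene) and in the sorting gate (Kit+ against Kit+ Sca-1+ Lin-), and these cannot be told apart. The labels do not give the promoter of the transgene, the age of the mice or whether replicates came from separate animals, so p-values measure only the spread between these samples, which may be technical.

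Both fusion genes occur in acute myeloid leukaemia. MLL fusions join the start of a chromatin regulator to partners such as AF10 and are known for holding HOXA genes active, and AML-ETO9a is a shortened splice form of the fusion of the DNA-binding factor AML1 (RUNX1) with the repressor partner ETO. A miRNA guides a silencing complex to messenger RNAs that pair with its seed, the stretch near its 5′ end, so miRNAs with the same seed share most predicted targets. Several miRNA genes lie inside the HOX clusters themselves, and others, such as miR-223 in granulocytes and miR-126 in stem cells, follow blood lineages.

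The mature miRNAs on which the comparison turned are shown with the seed, bases 2 to 8 from the 5′ end, in capitals. They were taken from RefSeq for the mouse build GRCm38.p6, where all 20 miRNAs looked up were matched by name. The Hox cluster miRNAs and miR-31, each undetected in 1 of the groups, are shown first.
miR-196a: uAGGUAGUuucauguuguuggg
miR-196b: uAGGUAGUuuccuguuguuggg
miR-10a: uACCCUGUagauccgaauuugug
miR-31: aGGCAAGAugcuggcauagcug
The next were also far higher in MLL-LSC, and each pair below miR-223 shares its seed.
miR-223: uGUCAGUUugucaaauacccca
miR-221: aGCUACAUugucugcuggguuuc
miR-222: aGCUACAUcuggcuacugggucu
miR-181b: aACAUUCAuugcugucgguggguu
miR-181d: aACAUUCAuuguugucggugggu
The next were lower in MLL-LSC, and miR-146a and miR-146b share their seed.
miR-183: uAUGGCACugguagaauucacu
miR-296: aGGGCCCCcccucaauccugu
miR-24: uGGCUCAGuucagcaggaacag
miR-126: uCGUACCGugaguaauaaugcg
miR-146a: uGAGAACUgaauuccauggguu
miR-146b: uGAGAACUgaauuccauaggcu
The last pair has 1 seed and moved in opposite directions.
miR-148a: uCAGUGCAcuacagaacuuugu
miR-152: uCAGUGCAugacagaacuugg

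The Hox miRNA genes have known places among the HOX genes. Mir196b lies at chr6:52230129-52230150 on the minus strand, between Hoxa9 and Hoxa10. Mir196a-1 lies at chr11:96265187-96265208 on the plus strand, between Hoxb13 and Hoxb9, and Mir196a-2 at chr15:102973365-102973386 on the plus strand, between Hoxc10 and Hoxc9. Mir10a lies at chr11:96317186-96317208 on the plus strand, within the annotated span of Hoxb3. Mir31 lies at chr4:88910614-88910635 on the minus strand, between Ifne and Mtap. Counted from the 5′ end, miR-196a and miR-196b differ by A12C alone, miR-181b and miR-181d by C12U over the 23 bases that both have, and miR-146a and miR-146b by G18A and U21C. Whether an assay for one such miRNA also reads its near twin was not tested.

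The 459 assays of a run each had 1 value, the threshold cycle (Ct), which is lower the more RNA there is and was set to 40 for no amplification. An assay was taken as detected below a Ct of 35. MLL-LSC runs detected 119 to 125 assays, KSL-ETO runs 111 to 113 and KSL-B6 runs 123 to 133, within the range of 61 to 143 over the series. Replicate runs of MLL-LSC differed by an SD of 0.472 to 0.561 cycles between any 2 runs, and those of KSL-ETO by 0.398 to 0.505. Each SD was taken over the assays with a Ct below 32 in both runs. Blood identity was carried by both groups: miR-142-3p, a miRNA found in all blood cells, had a Ct of 23.7, 23.7 and 23.8 in MLL-LSC, against 24.4, 25 and 24.7 in KSL-ETO. Neither erythroid assay was detected in either group. Just inside the limit, miR-361 had a Ct of 34.9 in MLL-LSC 1, and just outside it miR-182* had 35 in KSL-ETO 2.

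Of the 459 assays, 87 were detected in all 6 runs and 310 in none. A further 21 were detected in all 3 MLL-LSC runs and no KSL-ETO run, and 11 in all 3 KSL-ETO runs and no MLL-LSC run. The 130 assays detected in every run of at least 1 group were tested. Each run was centred on its mean Ct over the 87 common assays, so that 1 cycle became 1 log2 unit. Levels below the lowest one measurable in all runs were held at that floor, and a difference against a group at the floor is a bound with no measured error. In these bulk samples, fewer cells of a type and less RNA per cell cannot be told apart.

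The miRNA content of the groups differed widely. With limma's moderated test and Benjamini-Hochberg adjustment at 0.05, 102 of the 130 assays differed (78.5%). The 53 higher in MLL-LSC were 40.8% of those tested, and the 49 lower in MLL-LSC were 37.7%. The groups did not overlap in 103 assays (79.2%), 54 called differences exceeded 2 log2 units, and 24 called differences were bounds. The median difference over all tested assays was 0.16 log2 units. Without centring, the split of calls was 73 higher against 30 lower and the median 1.10, and the mean Ct over the common assays was 27.4 to 27.6 in MLL-LSC, against 28.3 to 28.7 in KSL-ETO. Small differences therefore depend on the scaling, and against 1 log2 unit 59 differences passed.

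**Figure D1:**
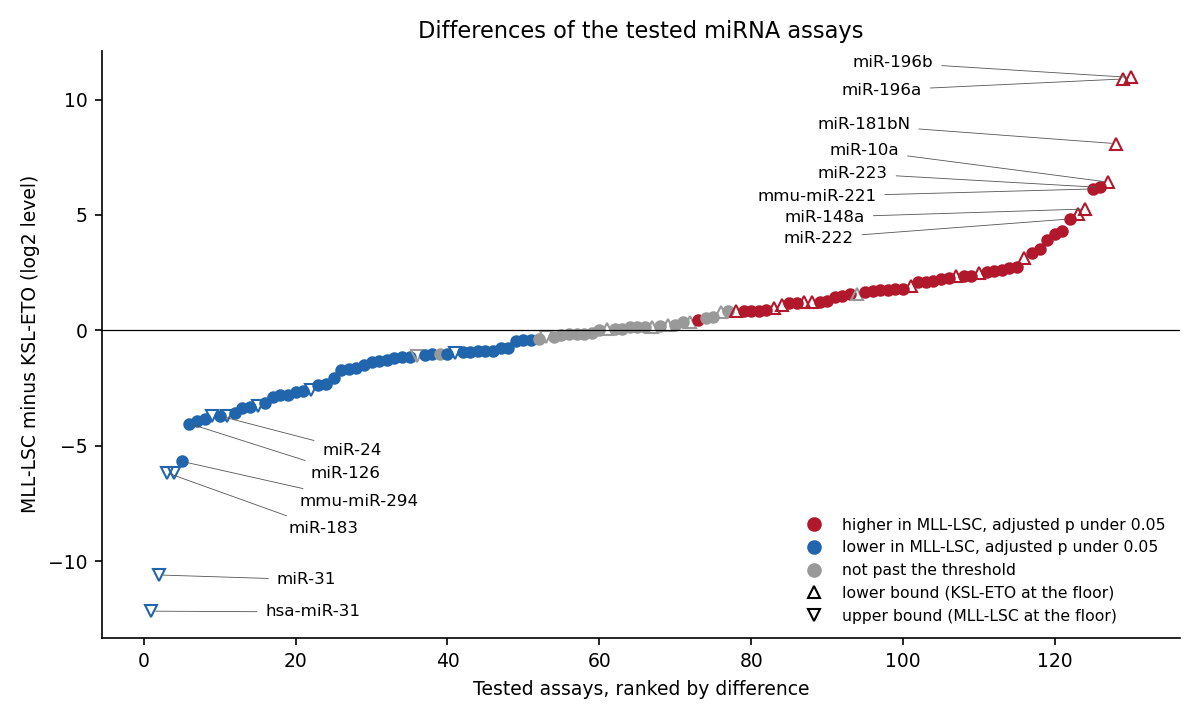
Difference in log2 level, MLL-LSC minus KSL-ETO, for each of the 130 tested assays in rank order; colours give the direction of the 102 calls, grey points did not pass, and open triangles are bounds where a whole group lay at the floor. The ends of the ranking are held by miR-196b and miR-196a at the top and both miR-31 assays at the bottom.

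The Hox cluster miRNAs were present in MLL-LSC and undetected in KSL-ETO. They repress HOX transcripts and other regulators of position and blood development. miR-196b had a Ct of 23.1, 22.8 and 22.8 in MLL-LSC, against 40 in each KSL-ETO run. miR-196a had 23.2, 22.9 and 22.8 in MLL-LSC, against 40 in each KSL-ETO run. Every MLL-LSC run was high, every KSL-ETO run gave no product, and the groups did not overlap. The differences were at least 10.96 log2 units for miR-196b (adjusted p = 1.92e-08) and at least 10.89 for miR-196a (adjusted p = 2.65e-08). miR-10a had 27.6, 27.2 and 27.5 in MLL-LSC, against 40 in each KSL-ETO run, a difference of at least 6.42 log2 units (adjusted p = 1.13e-07). The other 2 of the 5 Hox cluster assays, both for miR-10b, were not detected in any of the 6 runs.

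The wild type KSL cells carried these Hox miRNAs, so the 2 groups stood on either side of normal for miR-196. In KSL-B6, miR-196b had a Ct of 26.2, 26.1 and 25 and miR-10a 26.9, 26.8 and 26.6. miR-196b was 2.59 log2 units higher in MLL-LSC than in KSL-B6, and miR-196a 1.82 higher. miR-10a was 0.95 lower in MLL-LSC than in KSL-B6. In KSL-ETO, miR-196b was lower than in KSL-B6 by 8.27 log2 units or more, miR-196a by 8.97 or more and miR-10a by 7.27 or more. All of these passed the test in a fit of the 3 groups, in which 92 of 135 assays differed between MLL-LSC and KSL-B6 (68.1%) and 96 of 125 between KSL-ETO and KSL-B6 (76.8%). These comparisons share their samples with the main one.

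miR-31 was the reverse: abundant in KSL-ETO and undetected in MLL-LSC. It is known as a regulator of invasion and of stem cell signalling in several tissues. The assay hsa-miR-31 had a Ct of 40 in each MLL-LSC run, against 22.6, 22.7 and 22.6 in KSL-ETO. The second assay, miR-31, had 40, 38.2 and 39.3 in MLL-LSC, against 24.2 in each KSL-ETO run. No MLL-LSC run reached the detection limit with either assay, and the differences were -12.16 log2 units or lower (adjusted p = 1.92e-08) and -10.60 or lower (adjusted p = 2.96e-08). KSL-B6 lay between, with 28.4, 28.2 and 28.1 for hsa-miR-31. Against KSL-B6, hsa-miR-31 was lower in MLL-LSC by 5.81 log2 units or more, and 6.35 higher in KSL-ETO.

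miR-223, the granulocyte miRNA that is switched on by myeloid factors and is a known target of repression by AML1-ETO, was far higher in MLL-LSC. It had a Ct of 17.7, 17.4 and 17.3 in MLL-LSC, against 24.6 in each KSL-ETO run. The runs of each group lay close together and the groups far apart. The difference was 6.19 ± 0.16 log2 units (SE, n = 3 each; limma adjusted p = 5.83e-07). With KSL-B6 at 20.9, 21 and 20.5, miR-223 was 3.05 log2 units higher in MLL-LSC and 3.05 lower in KSL-ETO than in wild type KSL cells.

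The other myeloid assays on the list moved the opposite way, so 1 of the 4 tested was higher in MLL-LSC and 3 were lower, where 40.8% of all tested assays were higher and 37.7% lower. miR-146a and miR-146b damp NF-kB signalling through shared targets. The assay miR-146 had 27.2, 26.7 and 26.8 in MLL-LSC, against 23.8, 24 and 23.9 in KSL-ETO, a difference of -3.94 ± 0.14 log2 units (SE, n = 3 each; limma adjusted p = 3.43e-06). hsa-miR-146b had 24.2, 24 and 23.8 in MLL-LSC, against 21.4, 21.3 and 21.4 in KSL-ETO, a difference of -3.57 ± 0.18. All KSL-ETO runs held more of both than any MLL-LSC run. Against KSL-B6, miR-146 was 2.95 log2 units lower in MLL-LSC and 1.08 higher in KSL-ETO. hsa-miR-146b was 0.58 lower in MLL-LSC and 3.08 higher in KSL-ETO than in KSL-B6. miR-21, widely raised in tumours, was not detected in MLL-LSC, with Ct values of 39.2, 39.7 and 40, against 31.3, 33.2 and 32.1 in KSL-ETO. Its difference was -2.60 log2 units or lower.

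**Figure D2:**
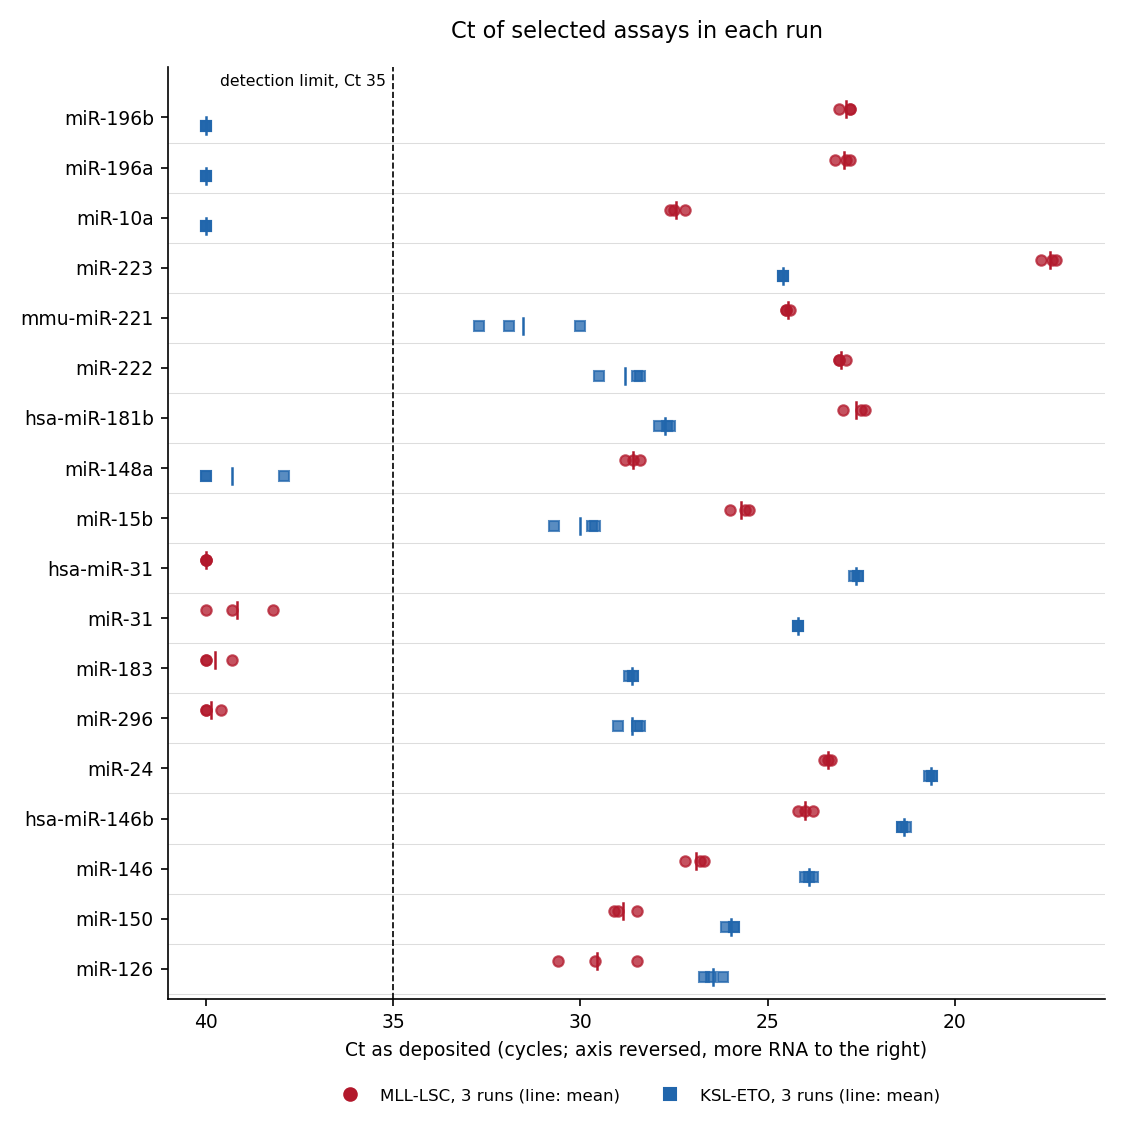
Deposited Ct of 18 assays in the 3 MLL-LSC runs (circles, upper in each row) and the 3 KSL-ETO runs (squares, lower), with a short line at each mean and a dashed line at the detection limit of 35; the axis runs from high to low Ct. miR-196b, miR-196a and miR-10a stand at 40 in KSL-ETO, hsa-miR-31 stands at 40 in MLL-LSC, and no assay shown overlaps between the groups.

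miR-221 and miR-222, made from 1 precursor on chromosome X and known to repress the Kit receptor, were both higher in MLL-LSC. mmu-miR-221 had a Ct of 24.5, 24.5 and 24.4 in MLL-LSC, against 31.9, 32.7 and 30 in KSL-ETO. miR-222 had 23.1, 22.9 and 23.1 in MLL-LSC, against 29.5, 28.5 and 28.4 in KSL-ETO. The MLL-LSC runs lay close together for both, the KSL-ETO runs were more spread, and every one of them was lower. The differences were 6.13 ± 0.66 log2 units (SE, n = 3 each; limma adjusted p = 0.000401) and 4.83 ± 0.39 (adjusted p = 0.000106). Both were highest in wild type KSL cells: MLL-LSC was lower than KSL-B6 by 1.68 log2 units for mmu-miR-221 and by 1.88 for miR-222, and KSL-ETO was lower than KSL-B6 by 7.72 and 6.62. The third assay of the list, miR-221, was not detected in any of the 6 runs.

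Among the lymphoid miRNAs, miR-181b and miR-181d were higher in MLL-LSC and miR-150 was lower. The 8 tested assays of the list gave 3 higher, 1 lower and 4 that did not pass, and without centring 7 higher and 1 lower. Over all tested assays 40.8% were higher and 37.7% lower. hsa-miR-181b had 22.4, 23 and 22.5 in MLL-LSC, against 27.6, 27.7 and 27.9 in KSL-ETO, a difference of 4.16 ± 0.25 log2 units (SE, n = 3 each; limma adjusted p = 3.17e-05). The second assay, miR-181bN, had 25.8, 25.6 and 25.9 in MLL-LSC, against 37.4, 37.9 and 36.7 in KSL-ETO, where it was not detected. Its difference was at least 8.09 log2 units, so both assays gave 1 direction and unequal sizes. hsa-miR-181d was 4.29 ± 0.48 higher. In MLL-LSC, hsa-miR-181b and hsa-miR-181d lay 0.38 and 0.08 log2 units below KSL-B6, neither past the threshold, while KSL-ETO was lower than KSL-B6 by 4.45 and 4.28. By miR-181bN, MLL-LSC was 1.05 log2 units higher than KSL-B6, which passed, and KSL-ETO was lower by 6.94 or more. The assays of miR-181b thus placed MLL-LSC differently against KSL-B6.

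miR-150, which restrains Myb in lymphocytes and their precursors, had 29.1, 29 and 28.5 in MLL-LSC, against 26.1, 25.9 and 25.9 in KSL-ETO. All MLL-LSC runs were low, and the difference was -3.84 ± 0.24 log2 units (SE, n = 3 each; limma adjusted p = 3.98e-05). It was 4.61 lower in MLL-LSC than in KSL-B6 and 0.68 lower in KSL-ETO than in KSL-B6. miR-155, a miRNA of activated lymphocytes and stem cells, had 31.6, 31.4 and 31.8 in MLL-LSC, against 33, 32.2 and 32.6 in KSL-ETO, a difference of 0.06 ± 0.31 log2 units. It was lower than in KSL-B6 in both groups, by 3.01 log2 units in MLL-LSC and by 2.98 in KSL-ETO. By its second assay, mmu-miR-155, the groups differed by 0.23 ± 0.31 log2 units, which did not pass. That assay was lower than in KSL-B6 by 1.88 in MLL-LSC and by 2.02 in KSL-ETO, so the sizes differed between assays.

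Of 13 assays on the list of miRNAs enriched in blood stem cells, 5 were tested, with 1 higher and 2 lower in MLL-LSC, beside 40.8% higher and 37.7% lower among all those tested. Without centring, 3 were higher and 2 lower. On this list 7 were undetected in every MLL-LSC run and 6 in every KSL-ETO run, while over the panel 330 of 459 (71.9%) were undetected in every MLL-LSC run and 336 (73.2%) in every KSL-ETO run. Every KSL-B6 run, however, detected miR-99a, mmu-miR-99a, miR-99b, miR-100, miR-125a, miR-125b and miR-126*. Against KSL-B6, miR-125a was lower by 8.04 log2 units or more in MLL-LSC and by 6.17 or more in KSL-ETO. The rest of these were lower by 2.21 to 5.01 or more in both groups, and all passed. miR-126, encoded within Egfl7 and known for restraining stem cell cycling, had 29.6, 28.5 and 30.6 in MLL-LSC, against 26.2, 26.7 and 26.5 in KSL-ETO. The highest MLL-LSC run lay below every KSL-ETO run, and the difference was -4.04 ± 0.49 log2 units (SE, n = 3 each; limma adjusted p = 0.000602). It was also 5.51 lower in MLL-LSC than in KSL-B6 and 1.38 lower in KSL-ETO than in KSL-B6. miR-130aN, for the stem cell miRNA miR-130a, was low in both groups against KSL-B6, by 6.41 log2 units in MLL-LSC and by 7.87 or more in KSL-ETO, where 2 of 3 runs were held at the floor. Its difference of at least 1.55 between them (adjusted p = 0.0430) did not pass when any one of MLL-LSC 3 or the 3 KSL-ETO runs was left out, with adjusted p between 0.0666 and 0.127. Without MLL-LSC 1 it passed at 0.0498 with a difference of 0.96.

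miR-183 and miR-296 were, like miR-31, detected in KSL-ETO and not in MLL-LSC. miR-183, a sensory and epithelial miRNA that is also raised in tumours, had a Ct of 39.3, 40 and 40 in MLL-LSC, against 28.6, 28.7 and 28.6 in KSL-ETO. miR-296, of the imprinted Gnas region, had 39.6, 40 and 40 in MLL-LSC, against 28.4, 29 and 28.5 in KSL-ETO. Neither was detected in any MLL-LSC run, both were found in every KSL-ETO run, and both differences were -6.16 log2 units or lower (adjusted p = 1.67e-07). In KSL-B6, miR-183 stood at 40 in each run and miR-296 at 32.7, 33.3 and 32.9, so that miR-183 was at least 6.16 log2 units higher in KSL-ETO than in KSL-B6 and miR-296 was 5.08 higher. mmu-miR-294, a miRNA of embryonic stem cells, was lower in MLL-LSC than in KSL-ETO and KSL-B6. It had 33.8, 33.5 and 32.1 in MLL-LSC, against 28.6, 28.2 and 28.4 in KSL-ETO. Its difference from KSL-ETO was -5.67 ± 0.50 log2 units (SE, n = 3 each). It was 4.81 lower in MLL-LSC than in KSL-B6, while the KSL-ETO difference of 0.95 from KSL-B6 did not pass.

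Of the miRNAs linked to AML1-ETO on the list, 3 of 5 assays were tested, with 1 higher in MLL-LSC (miR-223) and 2 lower (miR-24 and miR-126). miR-24 had 23.5, 23.3 and 23.4 in MLL-LSC, against 20.7, 20.6 and 20.6 in KSL-ETO. All KSL-ETO runs held more, and the difference was -3.71 ± 0.16 log2 units (SE, n = 3 each; limma adjusted p = 7.02e-06). Against KSL-B6 it was 0.95 lower in MLL-LSC and 2.85 higher in KSL-ETO. Of the miRNAs linked to MLL leukaemia, 9 of 10 assays were tested and 6 were higher in MLL-LSC, with none lower and a median difference of 1.69 log2 units. Over all tested assays 40.8% were higher, 37.7% lower and the median was 0.16. Without centring all 9 were higher. The 6 higher assays were miR-10a, miR-196b, miR-19a, miR-19b, miR-92 and miR-92N, of which the last 2 read 1 miRNA. All are also on the Hox cluster or miR-17 cluster lists, so this count is not a separate result. miR-9, which is on the MLL leukaemia list and is known as raised in MLL-rearranged leukaemia, was not detected in any of the 6 runs.

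The miR-17 clusters, oncogenic miRNAs that drive cell cycle entry and survival, were mostly higher in MLL-LSC. Of 18 assays on the panel, 13 were tested, and 11 were higher, 2 did not pass and none was lower, beside 40.8% higher and 37.7% lower over all tested assays. The median was 1.76 log2 units, against 0.16 over all tested assays, and the range -0.11 to 3.53. miR-92 had 21.1, 21.1 and 21.3 in MLL-LSC, against 24.5, 25 and 24.6 in KSL-ETO, a difference of 2.59 ± 0.13 (SE, n = 3 each; limma adjusted p = 1.38e-05). miR-20 had 21.3, 21.2 and 21.3 in MLL-LSC, against 24, 24.5 and 24.4 in KSL-ETO, a difference of 2.09 ± 0.12. All MLL-LSC runs held more of both than any KSL-ETO run. Against wild type, the shift lay on the KSL-ETO side for miR-92 and miR-19a, and on both sides for miR-20. The 2 assays of miR-93 differed in this. miR-92 was 2.25 log2 units lower in KSL-ETO than in KSL-B6, and 0.25 higher in MLL-LSC, which did not pass. miR-19a was 1.72 lower in KSL-ETO than in KSL-B6, and its MLL-LSC difference of -0.05 did not pass. Against KSL-B6, miR-20 was 0.75 higher in MLL-LSC and 1.25 lower in KSL-ETO, and the assay miR-93 1.19 higher and 1.42 lower. By the second assay, mmu-miR-93, KSL-ETO was 3.28 lower than KSL-B6, and the MLL-LSC difference of 0.15 did not pass. miR-18 was 0.72 higher in MLL-LSC than in KSL-B6, and its KSL-ETO difference of -0.42 did not pass.

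**Figure D3:**
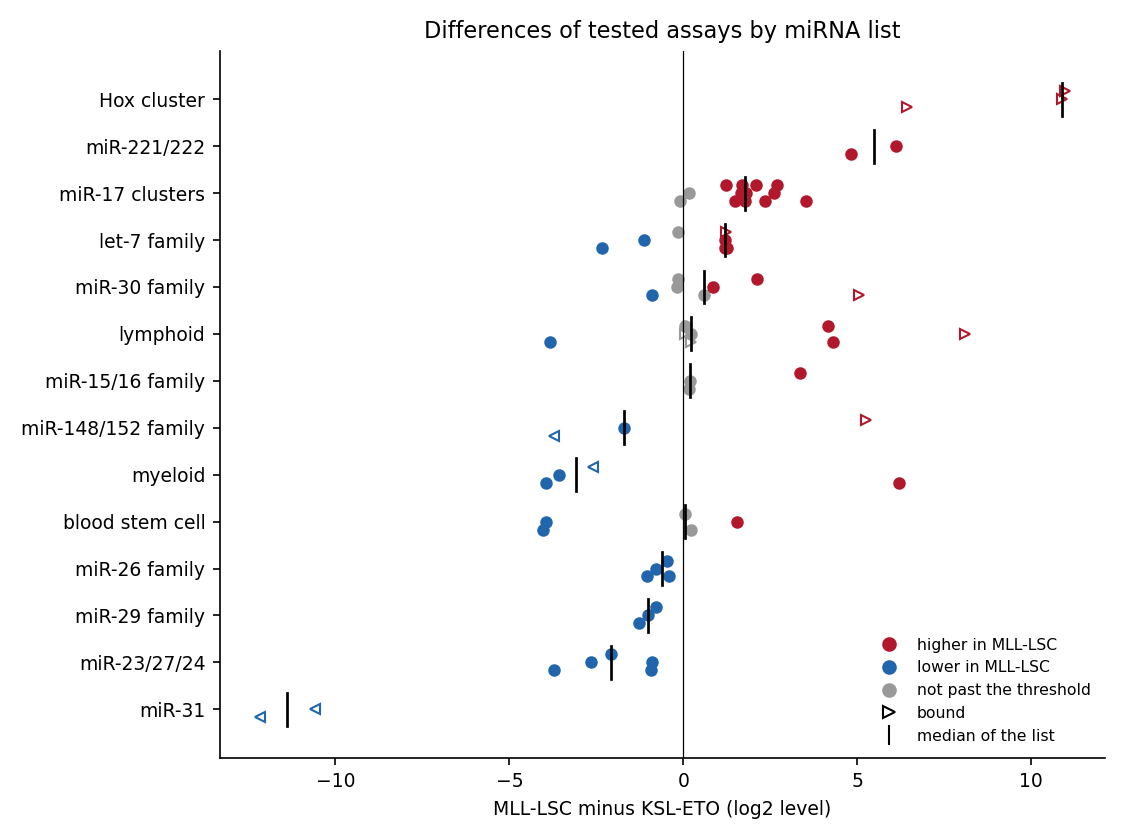
Difference in log2 level, MLL-LSC minus KSL-ETO, of the tested assays in 14 miRNA lists; each point is 1 assay, open triangles are bounds, and the black line is the median of the list. The Hox list and that of miR-221 and miR-222 lie to the right, the miR-31 list and that of miR-23, miR-27 and miR-24 to the left, and the myeloid list holds assays at both ends.

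Other large differences involved miRNAs near or beyond the detection limit in 1 group. Where only some runs of a group lay at the floor, the difference is again a bound. miR-28 had 29.4, 29.8 and 30.4 in MLL-LSC, against 40, 40 and 34.5 in KSL-ETO, where 1 run detected it and 2 were held at the floor, and was at least 3.89 log2 units higher. miR-149 had 30.5, 30.1 and 31.6 in MLL-LSC, against 40 in each KSL-ETO run, and was at least 3.12 higher. On the other side, mmu-miR-383 and HSA-leuk-mir-7 were undetected in MLL-LSC, with differences of -3.70 and -3.30 or lower. miR-324-5p had 31.5, 30.6 and 39.6 in MLL-LSC, against 29.4, 30.1 and 29.2 in KSL-ETO, so 1 MLL-LSC run did not detect it, and its difference was -3.37 or lower (limma adjusted p = 0.0111). mmu-miR-140*, with 1 MLL-LSC run at the floor, gave -3.34 or lower, and miR-301, of the miR-130 seed family, -2.87 ± 0.51 (SE, n = 3 each).

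Families of broadly expressed miRNAs were described in the same way. In the let-7 family, differentiation miRNAs held back by LIN28, 4 of 7 tested assays were higher in MLL-LSC and 2 lower, beside 40.8% higher and 37.7% lower over all tested assays. let-7c had 23.9, 23.8 and 23.9 in MLL-LSC, against 25.9, 26.2 and 26.1 in KSL-ETO, and was 1.26 ± 0.11 log2 units higher. let-7i had 28.1, 27.5 and 27.1 in MLL-LSC, against 26.3, 26.1 and 26.1 in KSL-ETO, a difference of -2.34 ± 0.29. The groups did not overlap for either, so members of 1 seed family lay on opposite sides. The second lower assay, mmu-let-7f, did not pass without MLL-LSC 2, KSL-ETO 1 or KSL-ETO 2. All 5 tested assays of the miR-23, miR-27 and miR-24 clusters were lower in MLL-LSC, with a median of -2.07 log2 units. Of the 5, 3 were lower without centring, and 3 without MLL-LSC 3, without KSL-ETO 1 or without KSL-ETO 3. The 3 lower without centring were miR-24, miR-23bN and miR-27bN. All 3 tested miR-29 assays were lower, with a median of -1.01, but without centring only miR-29bN was, and miR-29c turned to 0.17.

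The miR-26 family had no direction that held under both scalings. Its 4 assays were lower in MLL-LSC with centring, by differences of -0.41 to -1.04 log2 units, and miR-26a and miR-26bN were higher without it, at 0.47 and 0.53. The call of miR-26bN was also lost without MLL-LSC 2 (adjusted p = 0.0786) and without KSL-ETO 3 (adjusted p = 0.0534). Of 7 tested assays of the miR-30 family, 3 were higher and 1 lower, and without centring 6 were higher. Among all tested assays, 40.8% were higher and 37.7% lower. The largest was the minor strand miR-30a-3p, with 28.9, 28.8 and 28.7 in MLL-LSC, against 40 in each KSL-ETO run, a difference of at least 5.06 log2 units. miR-30d, the lower one at -0.91, turned to 0.03 without centring. Its call was lost without MLL-LSC 1, MLL-LSC 3 or any 1 KSL-ETO run, at adjusted p between 0.0622 and 0.112.

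miR-148a and miR-152 share the seed printed above and moved apart. They repress DNA methyltransferase transcripts. miR-148a had 28.8, 28.6 and 28.4 in MLL-LSC, against 37.9, 40 and 40 in KSL-ETO, a difference of at least 5.26 log2 units (adjusted p = 5.83e-07). miR-152 had 40, 40 and 39.3 in MLL-LSC, against 31.3, 30.8 and 31.1 in KSL-ETO, a difference of -3.73 or lower (adjusted p = 4.09e-05). Each was detected in all runs of 1 group and no run of the other. The second assay, miR-152N, was detected in all 6 runs, with 29.2, 29.2 and 30.4 in MLL-LSC, against 29, 29 and 28.5 in KSL-ETO, and gave -1.71 ± 0.38. The 2 assays of miR-152 thus gave 1 direction but placed MLL-LSC on different sides of the detection limit.

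The genes of the tested miRNAs also allowed miRNAs from 1 stretch of genome to be set side by side. RefSeq placed 105 of the 130 tested assays, and 19 clusters with hairpins within 10 kb of each other held at least 2 tested miRNAs. In 7 clusters every tested assay was called in 1 direction, and in 9 clusters calls in 1 direction stood beside assays that did not pass. Calls ran both ways in 2 clusters, and 1 cluster had no call. Over all tested assays 78.5% were called, 40.8% higher and 37.7% lower, and some clusters held 2 assays of 1 miRNA. Some miRNAs have genes in more than 1 cluster and count in each.

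The miR-106b cluster moved in 1 direction: miR-106b, miR-25 and both miR-93 assays were higher in MLL-LSC, by 1.49, 1.79, 2.69 and 3.53 log2 units. In the miR-15b and miR-16-2 cluster, of miRNAs that brake the cell cycle, the members differed. miR-15b had 25.6, 25.5 and 26 in MLL-LSC, against 29.6, 30.7 and 29.7 in KSL-ETO, a difference of 3.36 ± 0.26 log2 units (SE, n = 3 each; limma adjusted p = 9.14e-05). miR-16, which has a second gene elsewhere, had 24.7, 24.3 and 24.2 in MLL-LSC, against 25.5, 25.6 and 25.5 in KSL-ETO, and its difference of 0.19 ± 0.16 did not pass. In the miR-183, miR-96 and miR-182 cluster, miR-183 was lower in MLL-LSC by 6.16 log2 units or more, while the minor strand miR-182* was higher by 2.22 or more, since 2 KSL-ETO runs were held at the floor. The assay miR-182*, chosen after its values were seen, had 31.2, 31.6 and 32.1 in MLL-LSC, against 34.6, 35 and 38.4 in KSL-ETO.

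**Figure D4:**
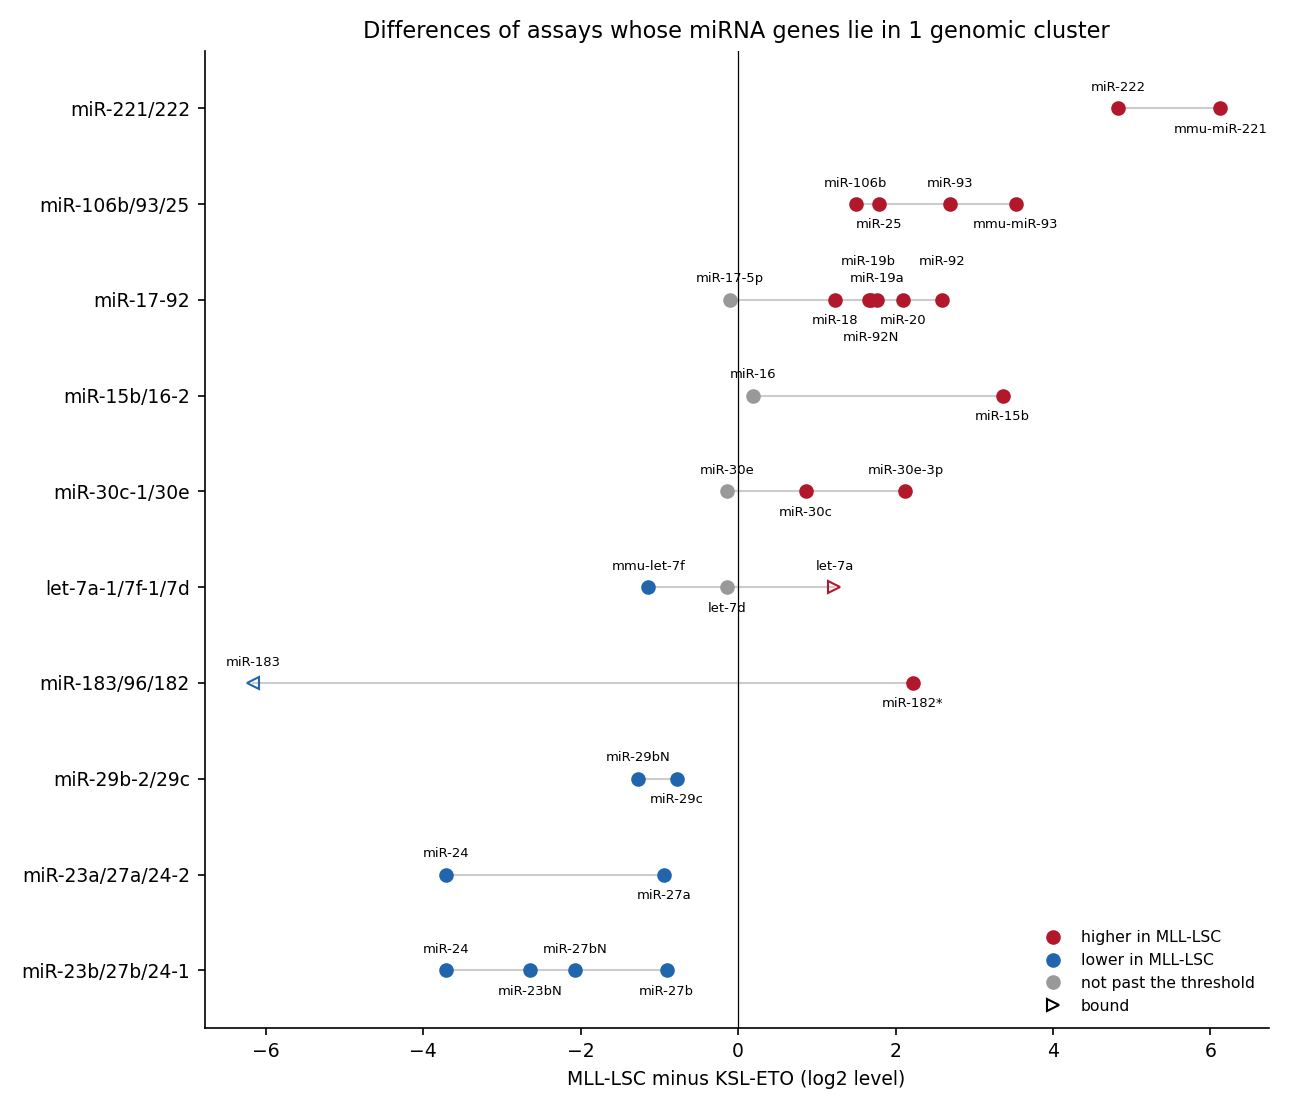
Difference in log2 level, MLL-LSC minus KSL-ETO, of tested assays whose miRNA genes lie within 10 kb of each other, for 10 genomic clusters, 1 per row; open triangles are bounds. The clusters of miR-221 and of miR-106b lie wholly to the right and those of miR-23, miR-27 and miR-24 wholly to the left, and miR-183 and miR-182* lie on opposite sides.

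Where 2 tested assays read 1 miRNA, they mostly gave 1 direction. Of 17 such pairs, 15 had the same sign, and in all 12 pairs with both assays called the direction was the same. Their differences lay 0.17 to 3.93 log2 units apart, with a median gap of 1.14, so the size of a difference is less certain than its sign. The widest gap was that of the miR-181b assays. miR-142-3p was one of the pairs that disagreed in sign: its first assay gave 0.03 ± 0.12 log2 units and did not pass, and mmu-miR-142-3p gave -1.37 ± 0.23 and passed.

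Markers of tissues other than blood were counted in the same way. In MLL-LSC, 5 of 7 mesenchymal, 2 of 3 muscle, 4 of 5 neural and 8 of 13 epithelial assays were undetected in every run, against 6 of 7, 3 of 3, 4 of 5 and 9 of 13 in KSL-ETO. Over the whole panel, 71.9% of assays were undetected in every MLL-LSC run and 73.2% in every KSL-ETO run. miR-145, of smooth muscle and fibroblasts, had 28.7, 29 and 28.6 in MLL-LSC, against 31.1, 31.9 and 31.4 in KSL-ETO, and was 1.76 ± 0.20 log2 units higher. miR-200b and miR-200c, epithelial miRNAs of separate genes, lay on opposite sides, with 2.26 or more for miR-200b (1 KSL-ETO run at the floor) and -2.39 or lower for miR-200c (1 MLL-LSC run at the floor). The summed level of the epithelial list, adding 2 to the power of 35 minus Ct for each detected assay, was 29.7 to 86.1 in MLL-LSC runs and 24.1 to 43.1 in KSL-ETO runs. That of the mesenchymal list was 70.5 to 96.6 in MLL-LSC and 8.57 to 14.9 in KSL-ETO. The mesenchymal sum came from miR-145 and miR-143 in MLL-LSC and from miR-145 alone in KSL-ETO. Both sums used Ct as deposited, without centring, so they also hold the later Ct of the KSL-ETO runs. The part of other cells in the results was not tested. In the imprinted Dlk1-Dio3 region, 33 of 37 assays were undetected in every MLL-LSC run and 35 in every KSL-ETO run.

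The other blood groups placed these differences. MLL-Prog (Kit- cells of the MLL-AF10 leukaemia, 3 runs) resembled MLL-LSC in miR-223, with Ct values of 17.5 to 17.6, and had no miR-31 in any run. Their miR-196b lay at 25.5 to 25.8 and their miR-10a at 33.1 to 33.7. miR-183 was undetected in every run of MLL-Prog, KSL-B6, LT-HSC (wild type blood stem cells, 4 runs), KSL-Mixed (wild type KSL of a mixed strain, 2 runs) and KSL-RbTKO (KSL without the Rb family, 2 runs), so among the blood groups it was detected in KSL-ETO alone. KSL-ETO also had the lowest Ct for the assay miR-31, at 24.2, where KSL-B6 had 29.2 to 29.4, LT-HSC 30.1 to 31.2 and KSL-Mixed 33.8 to 34.6. The assay hsa-miR-31 was undetected in every run of LT-HSC (37.5 to 40) and KSL-Mixed (35.7 to 38.7). miR-196b was undetected in every LT-HSC run as well. The Ct of mmu-miR-294 was similar in every KSL group, at 28.2 to 28.6 in KSL-ETO and 28.1 to 29 in KSL-B6. It was 28.2 to 28.4 in KSL-Mixed and 27.9 to 28.2 in KSL-RbTKO. Over the same KSL groups mmu-miR-383 lay at 30.6 to 31.4 and HSA-leuk-mir-7 at 30.7 to 31.9. These Ct values thus did not follow the number of assays detected, and the cause was not tested. LT-HSC runs detected 73 to 96 assays, KSL-Mixed runs 98 to 102 and KSL-RbTKO runs 61 to 65, against 111 to 113 in KSL-ETO. A miRNA undetected in those groups is therefore less surely absent. The levels in the other blood groups were not tested.

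**Figure D5:**
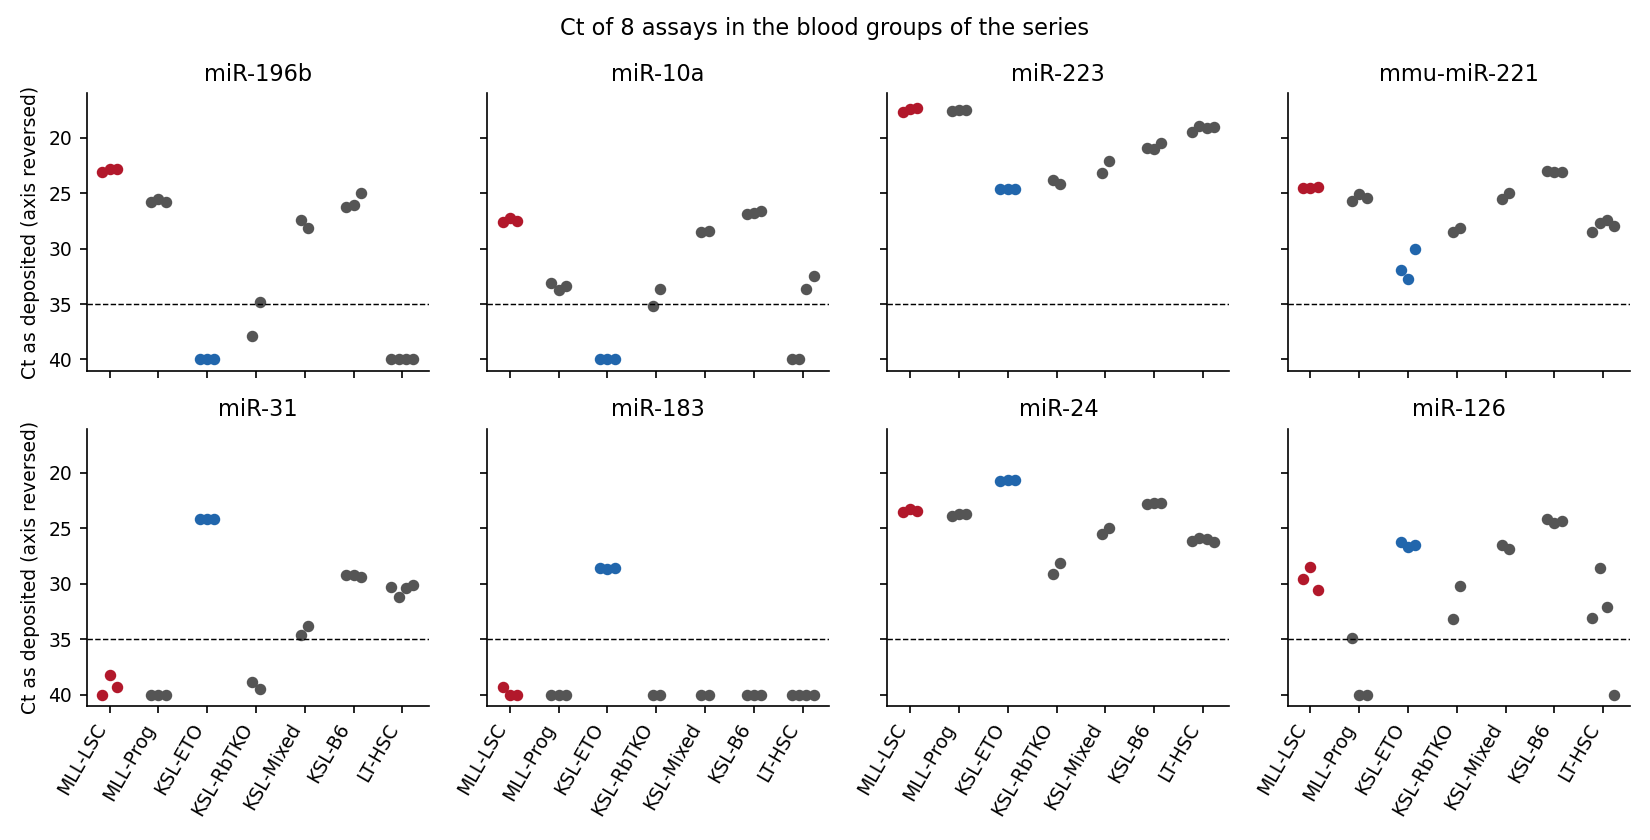
Deposited Ct of 8 assays in every run of the 7 blood groups, on a reversed axis with the detection limit of 35 dashed; MLL-LSC is red, KSL-ETO blue and the other groups grey. KSL-ETO is the only group shown with miR-183 below the limit, and LT-HSC shares with KSL-ETO the lack of detected miR-196b.

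Set beside wild type KSL, the 102 calls of the main comparison did not come from 1 side. By direction, 34.1% of the assays tested were higher in MLL-LSC than in KSL-B6 and 34.1% lower, and 40.8% were higher in KSL-ETO than in KSL-B6 and 36% lower. These splits depend on the scaling: centred, they were 46 higher and 46 lower for MLL-LSC and 51 higher and 45 lower for KSL-ETO, and without centring 54 higher and 33 lower for MLL-LSC and 24 higher and 57 lower for KSL-ETO. Of the 53 higher in MLL-LSC, 13 were higher in MLL-LSC than in KSL-B6 and lower in KSL-ETO than in KSL-B6, as miR-196b and miR-223 were. A further 10 were lower in KSL-ETO and not called in MLL-LSC. In MLL-LSC, 5 were higher and not called in KSL-ETO, and 9 more were higher and not tested in KSL-ETO. Of the 49 lower in MLL-LSC, 16 were lower in MLL-LSC than in KSL-B6 and higher in KSL-ETO, as both miR-31 assays were. In KSL-ETO, 13 were higher and not called in MLL-LSC, and 4 more were higher and not tested in MLL-LSC. In MLL-LSC, 7 were lower and not called in KSL-ETO. For other calls both groups lay on the same side of KSL-B6. Of the 53, 7 were higher in both groups than in KSL-B6 and 5 lower in both. Of the 49, 5 were higher in both and 2 lower in both. A call missing on 1 side does not show that the level there was normal.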

How the data were processed

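Multiplex reverse transcription and TaqMan assays were run on lysed sorted cells, per the labels' protocols. The deposited values are Ct scores, 1 per assay and run, with no normalization recorded in the sources used here. The members and lists were chosen with earlier results of these data known. Runs were grouped by their titles. Levels were computed as minus Ct, centred on the mean over assays detected below Ct 35 in every run compared, with a common floor. The floor equals a Ct of 33.7 to 33.9 in MLL-LSC and 34.6 to 35.0 in KSL-ETO. limma 3.58.1 (R 4.3.3) tested MLL-LSC against KSL-ETO over 130 assays, and a fit of 3 groups gave both contrasts with KSL-B6. The tests were checked on 20 simulated sets. These sets were not built to place a whole group at the floor, so the check does not cover the bounds. One value without an assay name was left out (1 in all).

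The assays named are the 15 largest non-overlapping calls in each direction, the markers miR-196b, miR-31 and miR-10a, up to 4 tested members of each list by adjusted p, and second assays of those. Others are given for their cluster, family or group. Same-numbered runs did not deviate together (correlations -0.07 to 0.15), so the numbers were not taken as pairs. Scaling, floor, detection limit, filter, prior and left-out runs were varied. Depth in reads does not apply to Ct, and the number of runs limits the precision.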

Additional observations from a re-analysis of the deposited data

How the results depend on the processing

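With 3 runs a group and values read to 0.1 cycle, the data limit small differences and those near the detection limit, and groups at the floor carry no measured spread, so their p-values are too small. The SEs given are limma's moderated ones, which draw on the spread of all tested assays. Assays with a group at the floor were among them, so they also affect the SEs and p-values of the others. The count of 102 calls was 59 against 1 log2 unit and 65 with all blood groups in 1 fit. Calls higher in MLL-LSC numbered 32 both against 1 log2 unit and over only those assays detected in every run, and 26 with all blood groups in 1 fit. Calls lower in MLL-LSC numbered 30 without centring and 27 against 1 log2 unit. The counts against KSL-B6 fell to 55 for MLL-LSC and 58 for KSL-ETO over assays detected in every run, and to 49 and 55 against 1 log2 unit. Leaving out 1 run gave 92 to 97 calls, 47 to 51 higher and 43 to 48 lower, and 81 to 89 for MLL-LSC and 85 to 97 for KSL-ETO against KSL-B6. Fitting replicate numbers as a block gave 100 calls, all among the 102. With 3 groups in 1 fit, added after the data were seen, 100 were called, 99 of them the same. Over the named assays and alternatives, 1333 values kept direction and side of the threshold, 102 lost the call, 5 gained it and 8 changed direction: miR-142-3p (-0.52) and miR-16 (-0.48) under quantile normalization, and miR-29c (0.17), miR-30d (0.033), miR-26b (0.17), miR-26a (0.47), miR-26bN (0.53) and miR-27b (0.033) without centring. The cause was not tested, beyond the removal of the centring itself.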

Other observations

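Several assays were designed against miRNAs of a primate gene cluster and still gave product in these mouse cells. hsa-miR-516-3p had Ct values of 27.2, 27.8 and 26 in MLL-LSC, against 30.7, 30.9 and 30.5 in KSL-ETO, a difference of 2.76 ± 0.49 log2 units (SE, n = 3 each). hsa-miR-520h had 35.1, 32.9 and 38.3 in MLL-LSC, against 31.1, 31.8 and 31.2 in KSL-ETO, a difference of -3.15 or lower, since 2 MLL-LSC runs were held at the floor. The source of these products was not tested. These assays were chosen after their values were seen.

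The hypoxia miRNA miR-210 was lower in MLL-LSC than in KSL-ETO with both of its assays. miR-210N had 27.9, 27.7 and 27.8 in MLL-LSC, against 27.1, 27.4 and 27.2 in KSL-ETO, a difference of -1.51 ± 0.10 log2 units (SE, n = 3 each; limma adjusted p = 5.55e-05). miR-210, with 2 of 3 MLL-LSC runs held at the floor, gave -2.65 or lower. Against KSL-B6, miR-210N was 1.99 log2 units higher in MLL-LSC and 3.58 higher in KSL-ETO, and both passed. The assay miR-210 was at least 2.72 higher in KSL-ETO than in KSL-B6, and its MLL-LSC difference did not pass. Both assays were chosen after their values were seen.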
